A study of Mus musculus with 10 samples.

Results

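The genes of the horizontal cell program examined here were Foxn4, Onecut1, Onecut2, Prox1, Lhx1, Sall3 and Calb1. They were found by symbol in the table of promoter occupancies, where each of the 7 had 1 entry, among 20040 gene symbols in 25152 entries. The genes were chosen by name, for their known part in these cells. The study followed H3K4me2 and H3K27me3 by ChIP-Seq in the maturing mouse retina at E17.5 (written E17 in the labels), PN1, PN7 and PN15. Each pair of stage and mark was represented by 1 library, which gives 8 libraries. The study's methods give C57BL/6j mice as the source of normal retina, while the strain label of every library, these included, reads Pde6b (rd1/rd1). This disagreement was not resolved. Retinas of several mice were pooled for the isolation of nuclei. In the labels the entry of either antibody holds the catalogue numbers of both, so the mark was read from the sample titles. The column of H3K27me3 at PN7 carries an added letter b. Of the 10 samples of the series, the rd1/rd1 H3K4me2 library at PN30 and the anti-GFP library at PN56 were not analysed here.

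Horizontal cells are interneurons of the outer retina that receive input from photoreceptors and send lateral feedback to them. They are made before birth and form a small share of retinal cells. Foxn4, a forkhead factor of retinal progenitors, acts upstream of Ptf1a, and together they direct progenitors to the horizontal and amacrine fates. Onecut1, Onecut2 and the homeobox factor Prox1 are needed for horizontal cells to form and remain on in them, although Prox1 is also present in other retinal neurons. Lhx1, a LIM homeobox factor, and Sall3, a zinc finger factor, act later, in the placement and the terminal features of the cells. Calb1, the calcium-binding protein calbindin, is a marker of the mature cell. H3K4me2 is found at active and poised promoters, and H3K27me3 is deposited by the Polycomb complex at silent or poised developmental genes.

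The promoters of Onecut1, Lhx1 and Foxn4 are shown because these genes span the range seen below, from the gene with the most H3K27me3 to the one with the least at E17.5. Each sequence is RefSeq's, from 250 bases before to 50 bases after the annotated start, written 5′ to 3′ in the direction of the gene, and it occurred once, unchanged, in mm9. Capitals mark CG dinucleotides, which read the same on both strands. The coordinates are chr9:74709478-74709777 (plus strand) for Onecut1, chr11:84338987-84339286 (minus strand) for Lhx1 and chr5:114723721-114724020 (minus strand) for Foxn4.
Onecut1: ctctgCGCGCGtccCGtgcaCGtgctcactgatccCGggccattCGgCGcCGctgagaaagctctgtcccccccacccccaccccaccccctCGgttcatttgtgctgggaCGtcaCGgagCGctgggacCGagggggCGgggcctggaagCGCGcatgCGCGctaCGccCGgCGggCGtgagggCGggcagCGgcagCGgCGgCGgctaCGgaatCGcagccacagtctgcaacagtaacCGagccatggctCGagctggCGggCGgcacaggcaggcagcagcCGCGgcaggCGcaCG
Lhx1: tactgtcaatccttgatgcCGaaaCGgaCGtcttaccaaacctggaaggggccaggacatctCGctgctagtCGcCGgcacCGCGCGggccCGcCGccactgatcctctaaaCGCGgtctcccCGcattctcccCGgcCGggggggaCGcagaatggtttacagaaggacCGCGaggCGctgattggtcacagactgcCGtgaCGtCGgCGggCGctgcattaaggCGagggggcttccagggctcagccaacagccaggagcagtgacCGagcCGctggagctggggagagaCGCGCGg
Foxn4: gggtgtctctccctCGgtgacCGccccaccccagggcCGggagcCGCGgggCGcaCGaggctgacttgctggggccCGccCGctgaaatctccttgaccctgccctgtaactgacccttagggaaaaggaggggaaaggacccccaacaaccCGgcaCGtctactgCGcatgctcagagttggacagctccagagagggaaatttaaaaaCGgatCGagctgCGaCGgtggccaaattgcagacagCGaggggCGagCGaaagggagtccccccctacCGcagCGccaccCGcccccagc

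Promoter sequences of 4 of the 7 genes were found in the table (the fourth was Prox1). The Onecut1 promoter held 38 CG dinucleotides, and 4.95% of the 32851 RefSeq promoters of this length outside chromosome 18 held at least as many. The Lhx1 promoter held 31 (10.6% held at least as many) and that of Foxn4 held 22 (23.1%). Prox1 had 25 CG dinucleotides at one annotated start (18.4%) and 14 at another (36.3%). The median promoter held 7, so all 5 of these windows were above it. In mm9, Foxn4 lies on chromosome 5 (114704173 to 114723816, minus strand), Onecut1 on chromosome 9 (74709728 to 74737591, plus strand), Prox1 on chromosome 1 (191945660 to 191994559, minus strand), Lhx1 on chromosome 11 (84331479 to 84338923, minus strand) and Calb1 on chromosome 4 (15808411 to 15835211, plus strand). Onecut2 (plus strand) and Sall3 (minus strand) lie on chromosome 18.

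Normalized occupancy is the authors' number of reads in the window of 2.5 kb on either side of a transcription start site (TSS), scaled to library size and given in whole numbers. The window has the same width for every gene, so occupancies can be set side by side between genes of the same library. Between stages they also depend on the libraries, which differed as given below. The window covers the TSS and its flanks and does not separate neighbouring genes. The start of a lincRNA on the other strand, 1500016L03Rik, lies 239 bp from that of Lhx1, and the start of the lincRNA Gm17566 lies 384 bp from that of Prox1. Reads of these neighbours cannot be told apart from those of Lhx1 and Prox1.

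With 1 library per condition no difference could be set against a replicate, and no test between stages was made. The intervals given below are exact 95% intervals that treat 1 unit of occupancy as 1 read. In each library every whole number from 0 up to at least 109 occurred, so 1 unit stood for about 1 read or more, and counting error alone would not give wider intervals. They cover counting error only. As a background, the 99th percentile of the 1053 entries of olfactory receptor (Olfr) genes, which are silent in the retina, was taken in each library. This level was 6, 9, 1 and 9.48 for H3K4me2 and 33.48, 43.96, 40.48 and 41.48 for H3K27me3 in order of stage. The H3K4me2 library of PN7 stood apart, with 19.5% of entries at 0 against 0.362% to 2.52% in the other H3K4me2 libraries. The H3K27me3 library of PN7 had 3.7% of entries at 0, against 0.0755% to 0.159% in the other H3K27me3 libraries. Changes across PN7 are therefore given with the changes from PN1 to PN15 and from E17.5 to PN15 that leave these libraries out. The tissue was checked on 12 rod genes, of which 12 exceeded the Olfr level of H3K4me2 at PN15. The rod factor Nrl had H3K4me2 occupancies of 35, 26, 24 and 116 at the successive stages. Of 6 genes each for other cells, the numbers above the Olfr level of H3K4me2 at E17.5 and PN15 were 6 and 5 for Müller glia, 2 and 1 for vessels and blood, 4 and 4 for pigment epithelium, and 1 and 1 for microglia. Their part in the results was not tested.

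Most of the horizontal cell genes carried both marks at all stages of whole retina. H3K4me2 exceeded the Olfr level at 7 of 7 genes at every stage, where 72.6%, 69%, 72.1% and 68.3% of all symbols did so at E17.5, PN1, PN7 and PN15. H3K27me3 exceeded it at 6 of 7 genes at E17.5, against 17.1% of all symbols. At the 3 later stages it did so at 7 of 7 genes, against 15.4%, 15.9% and 13.8%. The exception was Foxn4 at E17.5, which was above background with the 95th percentile of Olfr entries or with the 99th percentile of vomeronasal receptor entries, so that the count was then 7 of 7 for H3K27me3 and for both marks. Both marks exceeded the level together at 6, 7, 7 and 7 genes, against 15.6%, 13.1%, 14.6% and 10.9% of all symbols, and at all 4 stages at 6 genes, against 8.09%. In whole retina the occupancy is a sum over all cells, so 2 marks at 1 promoter can come from different cells, and fewer cells of a type and less of a mark per cell cannot be told apart. Occupancies of the 2 marks come from different antibodies, so their ratio at a gene is no measure of the balance of the marks.

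**Figure D1:**
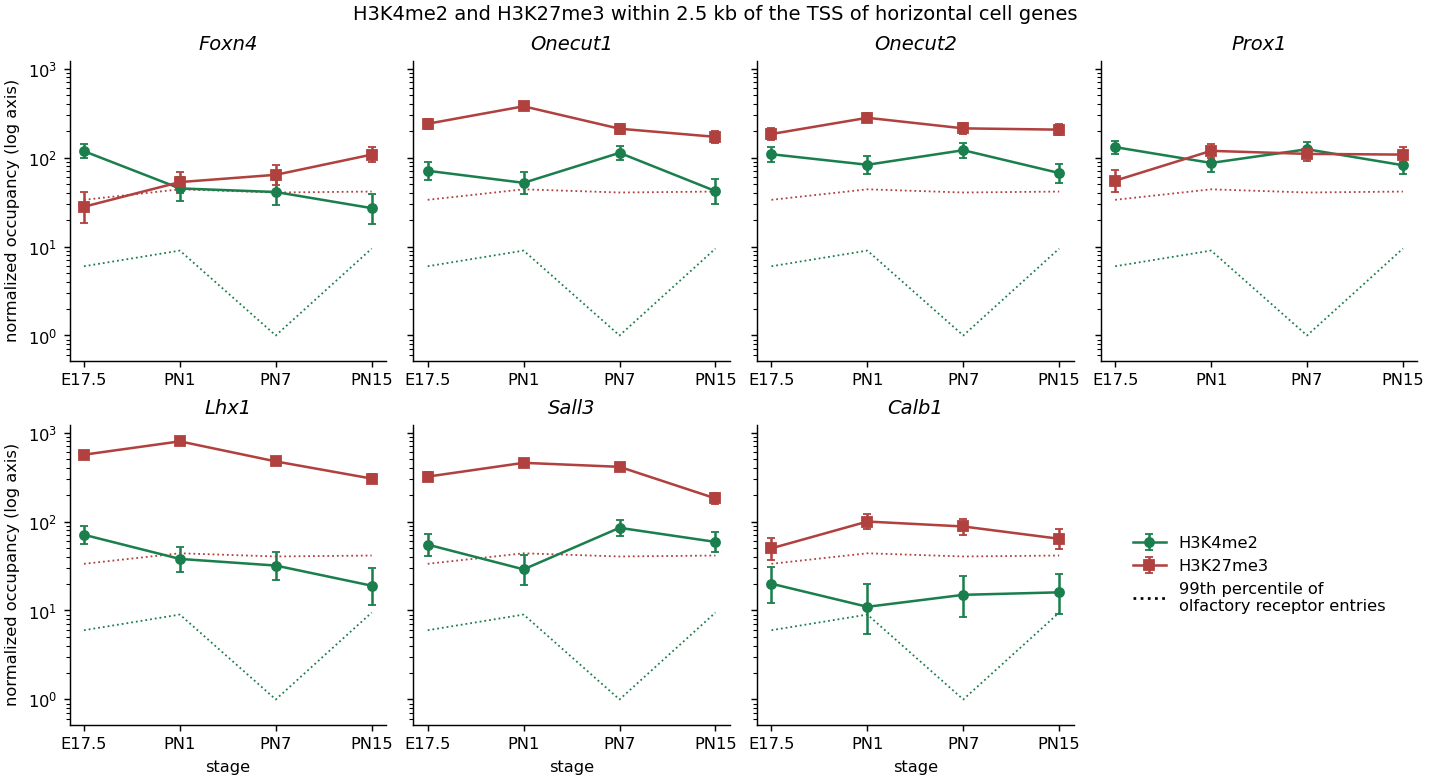
H3K4me2 (green circles) and H3K27me3 (red squares) at the 7 genes, as normalized occupancy within 2.5 kb of the TSS on a log axis, by stage. Bars are 95% counting intervals for 1 library per point, and dotted lines are the 99th percentile of Olfr entries for each mark. At Foxn4 H3K27me3 went from 28 to 108 and H3K4me2 from 118 to 27, while at the other 6 genes H3K27me3 was highest at PN1. At Prox1, Sall3 and Calb1 the counting interval of the ratio of PN7 to PN1 included no change.

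Foxn4, the progenitor factor at the top of the pathway, had less H3K4me2 and more H3K27me3 at PN15 than at E17.5, with each step in the same direction by value. Its H3K4me2 occupancy was 118 at E17.5 (95% counting interval 97.7 to 141), 45 at PN1 (32.8 to 60.2), 41 at PN7 (29.4 to 55.6) and 27 at PN15 (17.8 to 39.3). It was the highest of the 4 stages before birth and the lowest at PN15, and the rank of Foxn4 among all symbols went from 156 to 11560. Its H3K27me3 occupancy was 28 (18.6 to 40.5), 53 (39.7 to 69.3), 64 (49.3 to 81.7) and 108 (88.6 to 130) at the same stages. The intervals at E17.5 and PN1 both contain the Olfr level of their library (33.48 and 43.96), while those at PN7 and PN15 lie above it. The ratios of PN7 to PN1 were 1.21 (0.826 to 1.77) for H3K27me3 and 0.911 (0.582 to 1.42) for H3K4me2. The H3K4me2 ratio of PN15 to PN7 was 0.659 (0.39 to 1.1). These intervals include no change. From E17.5 to PN15 the H3K27me3 ratio was 3.86 (2.53 to 6.07) and the H3K4me2 ratio 0.229 (0.145 to 0.35). With the median change of all symbols subtracted, the log2 changes (1 added to each value) were 1.91 for H3K27me3 and −2.22 for H3K4me2.

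More H3K27me3 together with less H3K4me2 at PN15 than at E17.5, both by at least 2-fold relative to the median, was found at 1 of the 7 genes, Foxn4, against 2.28% of all symbols. Since H3K27me3 differs widely between genes, symbols were also compared within a class of like H3K27me3 level. Of the 7 genes, 4 had a mean H3K27me3 over the 4 stages of at least 100 (Onecut1, Onecut2, Lhx1 and Sall3), as did 7.54% of all symbols, and the other 3 had a mean from 50 to under 100, as did 5.81%. The mean of Foxn4 would be under 50 without PN15 and that of Prox1 over 100 without E17.5, so no H3K27me3 change of these 2 genes was ranked within a class. Among all symbols the changes of Foxn4 from E17.5 to PN15 lay at percentile 98.2 for H3K27me3 and at percentile 1.55 for H3K4me2. The symbols whose 8 values were nearest to those of Foxn4 were Nes, the intermediate filament nestin of progenitors, and Lfng, a modifier of Notch receptors. Their Euclidean distances on the log2(value + 1) scale over the 8 libraries were 0.93 and 1.10, against a median of 6.59 over all symbols. The H3K27me3 occupancy of Nes was 23, 51, 63 and 93 and that of Lfng 34, 84, 96 and 130, and their H3K4me2 went from 74 to 39 and from 89 to 32.

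Onecut1 and Onecut2, the cut homeobox factors, were above the Olfr level in both marks at every stage. The H3K27me3 occupancy of Onecut1 was 240 (211 to 272), 377 (340 to 417), 211 (183 to 241) and 171 (146 to 199) over the successive stages. That of Onecut2 was 184 (158 to 213), 280 (248 to 315), 213 (185 to 244) and 206 (179 to 236). Both genes thus had the most H3K27me3 at PN1, where their intervals lay apart, and their intervals overlapped at PN7 and PN15. At PN15 Onecut1 stood at 0.713 of its level at E17.5 (0.582 to 0.871), while the ratio of Onecut2 was 1.12 (0.913 to 1.37), an interval that includes no change. The class of symbols with at least 100 had a median log2 change of −1.12 over this span, and Onecut1 (−0.49) and Onecut2 (0.16) lay at percentiles 86.1 and 96.1 of it. By rank among all symbols, Onecut2 moved from 968 at E17.5 to 203 at PN15 although its occupancy moved little, and Onecut1 moved from 711 to 309.

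H3K4me2 at the Onecut genes was above the median of all symbols at E17.5, which was 41. Onecut1 had H3K4me2 occupancies of 71 (55.5 to 89.6), 52 (38.8 to 68.2), 113 (93.1 to 136) and 42 (30.3 to 56.8). Onecut2 had 109 (89.5 to 131), 83 (66.1 to 103), 121 (100 to 145) and 67 (51.9 to 85.1). In both genes PN7 was the highest stage and PN15 the lowest. Without PN7, the ratio of PN15 to E17.5 was 0.592 (0.394 to 0.878) for Onecut1 and 0.615 (0.446 to 0.841) for Onecut2. The ratios of PN15 to PN1 were 0.808 (0.525 to 1.24) and 0.807 (0.576 to 1.13), intervals that include no change. Of all pairs of the 7 genes, Onecut1 and Onecut2 had the most similar values over the 8 libraries (distance 1.29), and Foxn4 and Lhx1 the least (6.70). The symbols nearest to Onecut1 were the homeobox factor Lhx4 (0.78) and the runt factor Runx2 (0.89), and among those nearest to Onecut2 was the natriuretic peptide receptor Npr3 (1.18).

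Prox1 had the highest H3K4me2 of the 7 genes at every stage, although its interval overlapped that of Onecut2 each time. Its H3K4me2 occupancy was 131 (110 to 155), 87 (69.7 to 107), 124 (103 to 148) and 82 (65.2 to 102), which put it at ranks 52, 102, 180 and 4341 among all symbols. H3K27me3 was 55 (41.4 to 71.6) at E17.5, 119 (98.6 to 142) at PN1, 110 (90.4 to 133) at PN7 and 108 (88.6 to 130) at PN15. The ratio of PN1 to E17.5 was 2.16 (1.56 to 3.04), and the 3 levels after birth had overlapping intervals. Over the whole span the ratio was 1.96 (1.41 to 2.77), a log2 change of 0.96 that was just short of 2-fold and lay at percentile 87.8 of all symbols. By rank among all symbols in H3K27me3, Prox1 moved from 2419 to 826. The nearest symbols were the phosphodiesterase Pde10a (0.73) and the RNA-binding protein Zfp36l1 (0.73).

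Lhx1 held the most H3K27me3 of the 7 genes at every stage. Its H3K27me3 occupancy was 564 (518 to 613), 797 (743 to 854), 474 (432 to 519) and 304 (271 to 340). The interval of each stage lay apart from those of the others except at E17.5 and PN7, which overlapped between 518 and 519. The ratio of PN15 to E17.5 was 0.539 (0.467 to 0.621), while the rank of Lhx1 among all symbols went from 97 to 30. The highest H3K27me3 occupancy of any entry was 809 at E17.5 and 416 at PN15. H3K4me2 at Lhx1 was 71 (55.5 to 89.6), 38 (26.9 to 52.2), 32 (21.9 to 45.2) and 19 (11.4 to 29.7). It was lower by value at each successive stage. The ratio of PN15 to E17.5 was 0.268 (0.152 to 0.449), at percentile 6.25 of the 1511 symbols in the class of Lhx1. The ratios of PN7 to PN1 and of PN15 to PN7 were 0.842 (0.509 to 1.38) and 0.594 (0.318 to 1.08). Both of these intervals include no change. The nearest symbols were Gfi1 (0.37), a zinc finger repressor, and the forkhead factor Foxb2 (0.60).

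Sall3 had the second most H3K27me3 of the 7 genes at E17.5, PN1 and PN7. Its H3K27me3 occupancy was 320 (286 to 357), 457 (416 to 501), 412 (373 to 454) and 182 (157 to 210). The ratio of PN15 to PN7 was 0.442 (0.369 to 0.527). At Onecut1 and Lhx1 the ratios of PN7 to PN1 were 0.56 (0.471 to 0.664) and 0.595 (0.53 to 0.667), and those of PN15 to PN7 were 0.81 (0.659 to 0.996) and 0.641 (0.553 to 0.742). For Sall3 the ratio of PN7 to PN1 was 0.902 (0.787 to 1.03). These steps include the PN7 library. From PN1 to PN15, which leaves it out, the ratios were 0.398 (0.334 to 0.474) for Sall3, 0.454 (0.376 to 0.545) for Onecut1 and 0.381 (0.333 to 0.436) for Lhx1. H3K4me2 was 55 (41.4 to 71.6), 29 (19.4 to 41.6), 85 (67.9 to 105) and 59 (44.9 to 76.1). The levels at E17.5 and PN15 had overlapping intervals and a ratio of 1.07 (0.73 to 1.58), a log2 change of 0.10 that became −0.03 relative to the median. Sall3 was thus the only 1 of the 7 genes whose H3K4me2 value was not lower at PN15 than at E17.5. The ratio of Calb1, 0.8 (0.388 to 1.62), also includes no change. The nearest symbols were the p53 relative Trp73 (0.59) and the forkhead factor Foxq1 (0.63).

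Calb1, the calbindin gene of the mature cell, had the least H3K4me2 of the 7 genes at every stage. Its H3K4me2 occupancy was 20 (12.2 to 30.9), 11 (5.49 to 19.7), 15 (8.4 to 24.7) and 16 (9.15 to 26), with intervals that all overlapped. At PN1 and PN15 it was 1.22 and 1.69 times the Olfr level, and the lower bound of its interval was below that level at both stages. H3K27me3 was 50 (37.1 to 65.9), 100 (81.4 to 122), 88 (70.6 to 108) and 64 (49.3 to 81.7). It was thus highest at PN1, at 2 times the level of E17.5 (1.41 to 2.87), and the ratio of PN15 to E17.5 was 1.28 (0.87 to 1.89). The ratio of PN7 to PN1 was 0.88 (0.653 to 1.18), an interval that includes no change. The nearest symbols were Arhgap29, a GTPase activating protein (0.79), and Ttll8, a tubulin-modifying ligase (0.84).

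**Figure D2:**
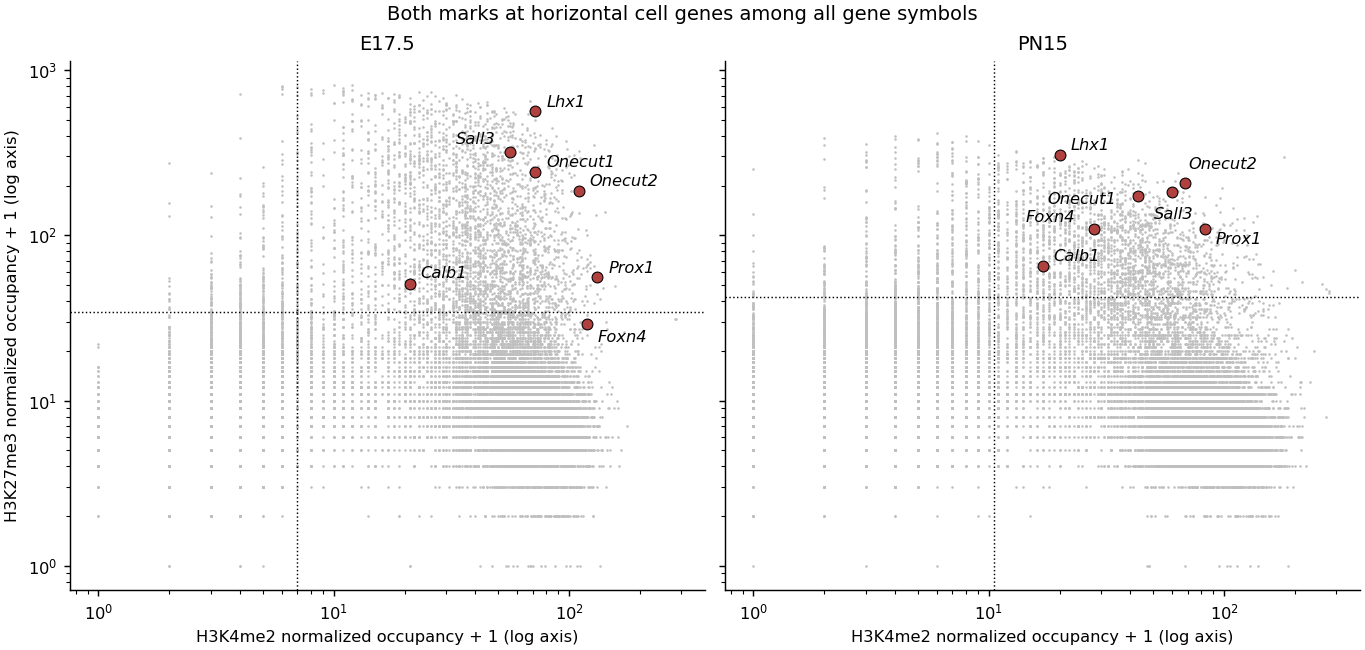
H3K4me2 (horizontal axis) against H3K27me3 (vertical axis) at E17.5 and PN15, as normalized occupancy plus 1 on log axes, for all 20040 gene symbols (grey) and the 7 horizontal cell genes (red). Dotted lines are the 99th percentile of Olfr entries, and Foxn4 is the gene below the H3K27me3 line at E17.5 (28), while all 7 genes lie above both lines at PN15.

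In order of H3K27me3 at E17.5, Lhx1 came first, followed by Sall3, Onecut1, Onecut2, Prox1, Calb1 and Foxn4. Neighbours in this order with overlapping counting intervals were Onecut1 with Onecut2, Prox1 with Calb1, and Calb1 with Foxn4. At PN15 the order was Lhx1, Onecut2, Sall3, Onecut1, then Foxn4 level with Prox1, and Calb1. The intervals of Onecut2, Sall3 and Onecut1 then overlapped, and the range over the 7 genes had narrowed from 28 to 564 at E17.5 to 64 to 304 at PN15. The median of the 7 genes was 184, 280, 211 and 171 at the successive stages, beside 230, 271, 198 and 110 for the symbols with a mean of at least 100 and 11, 10, 9 and 10 for all symbols. For H3K4me2 the median of the 7 genes was 71, 45, 85 and 42, beside 41, 27, 24 and 42 for all symbols.

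H3K27me3 was higher at PN1 than at E17.5 at 7 of 7 genes, against 49.1% of all symbols. It was highest at PN1 of the 4 stages at 6 of 7 genes, against 25.6% of all symbols, 78.7% of symbols with a mean of at least 100 and 48.3% of those from 50 to under 100. The remaining gene, Foxn4, was highest at PN15, as were 27.4% of all symbols. At Prox1, Sall3 and Calb1 the ratios of PN7 to PN1 were 0.924 (0.707 to 1.21), 0.902 (0.787 to 1.03) and 0.88 (0.653 to 1.18). These intervals include no change, so PN1 was not set apart from PN7 at these genes. The lowest stage was E17.5 at 4 genes (Foxn4, Onecut2, Prox1 and Calb1; 18.1% of all symbols) and PN15 at the other 3 (28.8%). In the higher class, 92.7% of symbols were lowest at PN15.

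Between neighbouring stages few changes in H3K27me3 reached 2-fold relative to the median of all symbols. From E17.5 to PN1, 1 gene was higher (Prox1, 5.76% of all symbols) and 0 were lower (8.27%). From PN1 to PN7, 0 genes were higher (8.44%) and 0 lower (9.33%). From PN7 to PN15, 0 were higher (15%) and 1 was lower (Sall3, 9.71%). The median log2 change of the 7 genes was 0.65, −0.02 and −0.30 over these steps, beside 0.26, −0.27 and −0.94 in the class of at least 100 and 0.23, −0.01 and −0.52 in the class from 50 to under 100. From PN1 to PN15 it was −0.64, beside −1.39 and −0.64 in these classes. From PN1 to PN15, 1 gene was higher (Foxn4, 13.2%) and 3 were lower (Onecut1, Lhx1 and Sall3, 17%). These 3 are among the 4 genes with a mean of at least 100, a class in which 76.7% of symbols were at least 2-fold lower over this span.

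Over the whole span from E17.5 to PN15, H3K27me3 was higher at 4 of the horizontal cell genes and lower at 3, by less than 2-fold in 6 of the 7. Relative to the median, 1 gene was at least 2-fold higher (Foxn4), against 12.1% of all symbols, and 0 were at least 2-fold lower, against 16.1% of all symbols. Of the symbols with a mean of at least 100, 59.8% were at least 2-fold lower, beside 0 of the 4 genes in that class. The 4 genes that were higher at PN15 than at E17.5 were Foxn4, Onecut2, Prox1 and Calb1, against 44.5% of all symbols. Of the 4 genes with a mean of at least 100, 1 was higher (Onecut2), beside 5.16% of that class. The changes of these 4 genes lay at percentiles 67.2 (Lhx1), 71.8 (Sall3), 86.1 (Onecut1) and 96.1 (Onecut2) of the class. The difference between the genes and the class was not tested.

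**Figure D3:**
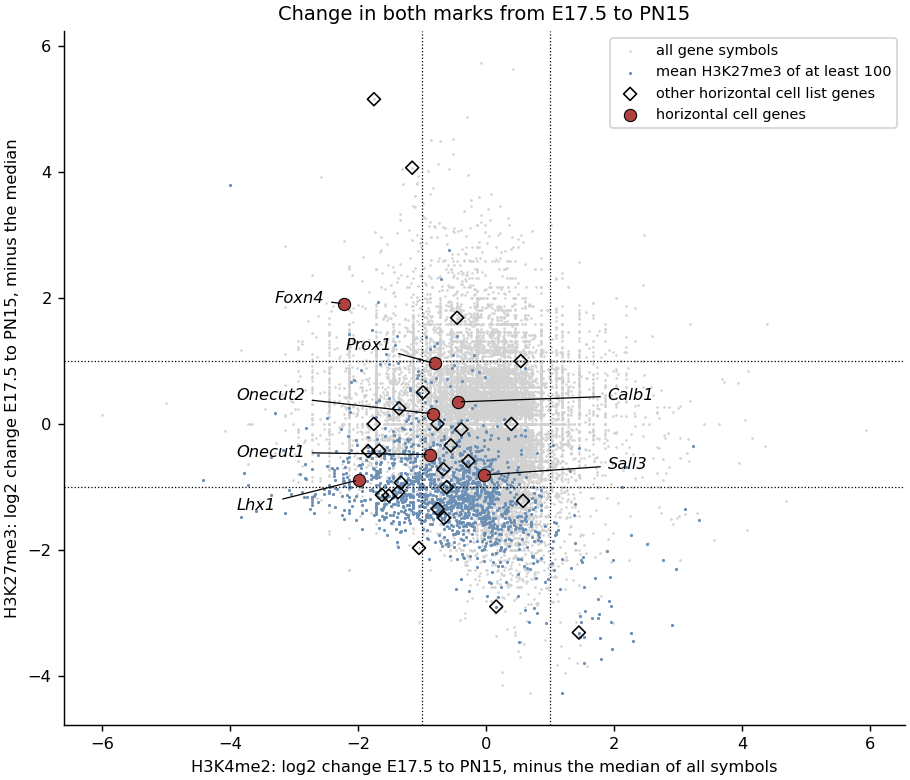
Log2 change from E17.5 to PN15 in H3K4me2 (horizontal axis) and H3K27me3 (vertical axis), each minus the median of all symbols, for all symbols (grey), symbols with a mean H3K27me3 of at least 100 (blue), the other horizontal cell list genes (open diamonds) and the 7 horizontal cell genes (red). Dotted lines are 2-fold changes. Foxn4 (−2.22, 1.91) is the 1 gene of the 7 past the limit in both marks, and no red point lies below the lower line.

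H3K4me2 was lower at PN15 than at E17.5 at 6 of 7 genes (all but Sall3), against 37.6% of all symbols and 68.8% of symbols with a mean H3K27me3 of at least 100. Of these 6, Calb1 had a ratio of 0.8 (0.388 to 1.62), an interval that includes no change. Relative to the median of all symbols, which rose by 0.13 on the log2 scale, 2 genes were at least 2-fold lower (Foxn4 and Lhx1), against 12.8% of all symbols, 30.3% of the class of at least 100 and 21% of the class from 50 to under 100. No gene was at least 2-fold higher (5.17% of all symbols). The highest stage of H3K4me2 was E17.5 at 4 genes (Foxn4, Prox1, Lhx1 and Calb1; 24.8% of all symbols) and PN7 at 3 (Onecut1, Onecut2 and Sall3; 5.29%). The lowest stage was PN15 at 5 genes (6.26%) and PN1 at 2 (Sall3 and Calb1, 26%). The ratios of PN15 to PN1 were 0.808 (0.525 to 1.24) for Onecut1 and 0.807 (0.576 to 1.13) for Onecut2. That of Prox1 was 0.943 (0.688 to 1.29). Those of PN15 to PN7 were 0.659 (0.39 to 1.1) for Foxn4 and 0.594 (0.318 to 1.08) for Lhx1. All these intervals include no change, so PN15 was not set apart as the lowest stage at these 5 genes. Intervals of E17.5 and PN7 also overlapped at Onecut2 and Prox1, and those of all stages at Calb1. Among all symbols 59.8% were lowest in the PN7 library that stood apart, which lowers the shares for the other stages. In the classes of at least 100 and from 50 to under 100, the shares highest at E17.5 were 50.2% and 39.2%, highest at PN7 20.1% and 21.3%, and lowest at PN15 28.8% and 19.8%.

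Single steps of H3K4me2 are given with the shift of all symbols beside them, since the PN7 library stood apart. From E17.5 to PN1, 0 genes were at least 2-fold higher (13.7% of all symbols) and 0 lower (1.11%) relative to a median change of −0.42. Foxn4 lay closest to the limit, at −0.96. H3K4me2 was higher at PN7 than at PN1 at 5 of 7 genes, against 29.8% of all symbols and 58.3% of the class of at least 100. The median change of all symbols was −0.50 here, and relative to it 4 genes were at least 2-fold higher (Onecut1, Onecut2, Prox1 and Sall3), against 13.7% of all symbols and 35.3% of the class, and 0 were lower (26.6%). Foxn4 and Lhx1 had lower occupancies at PN7 than at PN1 but lay above the median change. The largest ratios were 2.93 (1.9 to 4.64) at Sall3 and 2.17 (1.55 to 3.08) at Onecut1, and only these 2 reached 2-fold without the subtraction. The count of genes higher was also 2 with a pseudocount of 5.

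From PN7 to PN15 the median log2 change of all symbols was 1, so that a gene whose occupancy stayed level counted as 2-fold lower. Relative to this median 6 genes were lower (all but Calb1), against 17.1% of all symbols, 56.3% of the class of at least 100 and 47.2% of that from 50 to under 100, and 0 were higher (15.9%). Without the subtraction 1 gene was lower, namely Onecut1, with a ratio of 0.372 (0.254 to 0.534). Calb1 was slightly higher in occupancy (1.07, 0.494 to 2.32) and lower relative to the median. With PN7 left out, from PN1 to PN15, 2 genes were at least 2-fold lower (Foxn4 and Lhx1; 19.4% of all symbols) and 0 higher (4.52%), and the ratio of Sall3 was 2.03 (1.28 to 3.29), a change of 0.50 relative to the median.

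Other genes of horizontal cells were taken from lists of 12 regulators and 14 effectors, all of which were found. Relative to the median, from E17.5 to PN15, 7 of the 12 regulators were at least 2-fold lower in H3K4me2 and 0 higher, against 12.8% and 5.17% of all symbols. In H3K27me3 5 were lower and 1 was higher, against 16.1% and 12.1%. In the class with a mean H3K27me3 of at least 100 the shares lower were 30.3% for H3K4me2 and 59.8% for H3K27me3. Ptf1a, the partner of Foxn4, went from 58 to 24 in H3K4me2 and from 315 to 148 in H3K27me3. Isl1, a LIM homeobox factor of several retinal neurons, went from 44 to 15 and from 316 to 144. Onecut3, a relative of Onecut1 and Onecut2, had H3K27me3 occupancies of 610, 720, 495 and 216. Pax6, the eye field factor, resembled Foxn4 in direction. Its H3K27me3 was 4, 15, 113 and 178 and its H3K4me2 137, 97, 114 and 44. Neurod1 and Atoh7, proneural factors that also act in other retinal fates, are 2 of the 5 regulators counted as lower and had less H3K27me3 at PN15 than at E17.5, at 24 against 186 and 24 against 97.

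Of the 14 effectors, 4 were at least 2-fold lower in H3K4me2 and 1 higher (12.8% and 5.17% of all symbols), and 5 were lower in H3K27me3 and 3 higher (16.1% and 12.1%). Of these H3K27me3 calls, those of Ndrg1 (lower), Panx1 and Sept4 (both higher) are at genes below the Olfr level at every stage, named after their values were seen, so that Sema6a was the 1 gene higher that exceeded this level. Sema6a, a semaphorin that guides horizontal cell processes, had H3K27me3 of 5, 8, 65 and 100, while its H3K4me2 went from 151 to 74. Nefh, the heavy neurofilament, changed the other way, with H3K27me3 of 457, 475, 262 and 45 and H3K4me2 of 26, 26, 70 and 80. Nefl, the light neurofilament, had less of both at PN15, at 22 against 59 in H3K4me2 and 123 against 272 in H3K27me3. Gad1 and Gad2, enzymes of GABA synthesis, differed in H3K27me3, which was 457 and 239 at E17.5 and PN15 at Gad1 and 52 and 74 at Gad2. Gja10, the connexin of horizontal cell gap junctions, had H3K4me2 of 3, 6, 1 and 2, at or below the Olfr level at every stage.

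**Figure D4:**
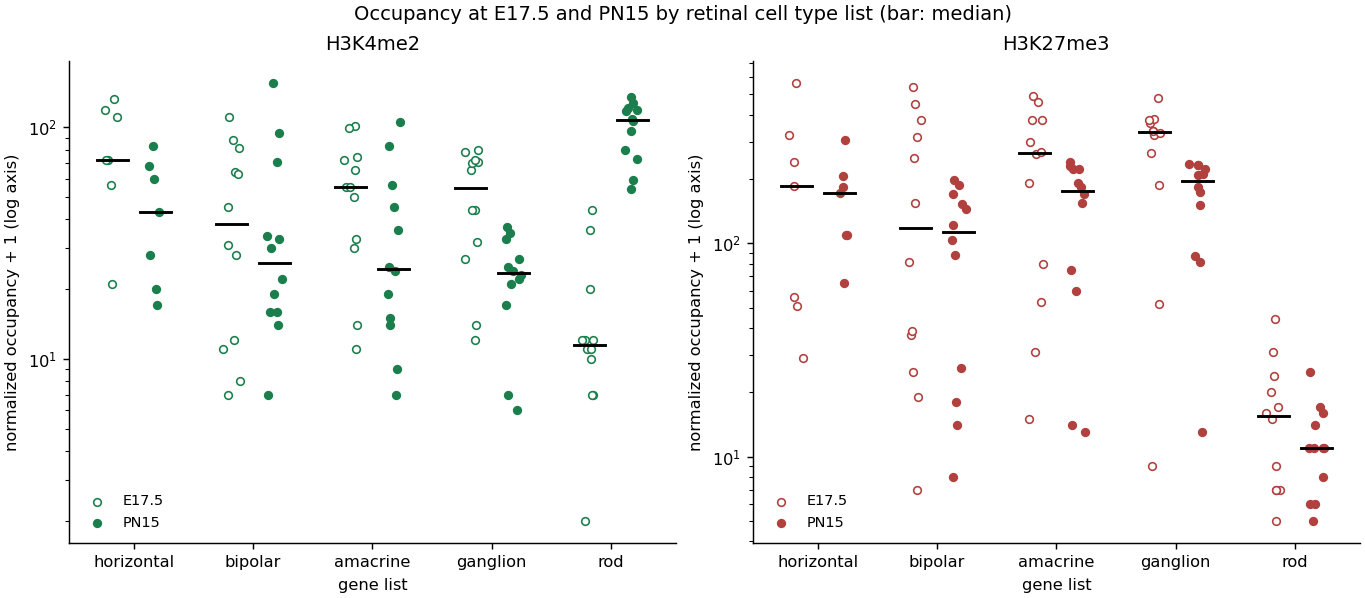
H3K4me2 (left) and H3K27me3 (right) at E17.5 (open circles) and PN15 (filled circles), as normalized occupancy plus 1 on a log axis, for the 7 horizontal cell genes and 12 genes each for bipolar, amacrine, ganglion and rod cells. Points are genes and bars medians. The H3K27me3 median of the horizontal cell genes was 184 at E17.5 and 171 at PN15, while that of the ganglion cell genes went from 331.5 to 196.

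Set beside lists of 12 genes for other retinal cells, the 7 horizontal cell genes had a median within the range of the medians of the inner retinal neurons in H3K27me3 and above them in H3K4me2, while the single genes of these lists overlapped. Their median H3K27me3 of 184 at E17.5 and 171 at PN15 stood beside 264 and 175.5 for amacrine, 331.5 and 196 for ganglion and 117.5 and 112 for bipolar cell genes. The medians of the rod genes, 14.5 and 10, were below the Olfr level. Their median H3K4me2 of 71 and 42 stood beside 54 and 23.5, 53.5 and 22.5, and 37 and 25 in the same order of lists. The median log2 change in H3K27me3 relative to all symbols was 0.16 for the 7 genes, −0.48 for amacrine, −0.69 for ganglion and −1.19 for bipolar cell genes. For the other horizontal cell regulators and effectors it was −0.58 and −0.47. The 0.16 is the value of Onecut2, whose interval includes no change, and the 7 genes ranged from −0.89 to 1.91. At least 2-fold lower were 0 of 7 horizontal, 3 of 12 amacrine, 3 of 12 ganglion and 7 of 12 bipolar cell genes, beside 5 of the 12 other horizontal cell regulators, 5 of the 14 effectors and 16.1% of all symbols. The median change in H3K4me2 was −0.83 for the 7 genes, beside −1.18, −1.13 and −0.09 for amacrine, ganglion and bipolar cell genes and 2.86 for rod genes, where 12 of 12 were at least 2-fold higher. The lists share some genes with each other, and with 1 library per condition the differences between them were not tested.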

How the data were processed

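ChIP-Seq reads of 8 retinal libraries (2 marks, 4 stages, 1 library each) were mapped to mm9 (the authors used Bowtie 0.12.4, per the submitters' processing notes). The deposited values are scores, namely reads within 2.5 kb of each RefSeq TSS that the authors scaled to library size and gave as whole numbers. Total reads per library are not given in the table, so no count model was used and the precision is given as counting intervals only. Groups follow the sample titles.

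Where a symbol had several entries, the one with the largest total was used. Changes are log2 ratios with a pseudocount of 1, minus the median of all 20040 symbols, and 2-fold was the limit for a call. Poisson and Clopper-Pearson 95% intervals were used, without a test or a filter on low values. Every one of the 7 genes was named, with up to 6 examples from each of the other horizontal cell lists (3 more effectors were named after their values were seen), the rod factor Nrl, and the 2 symbols nearest to each gene. Some genes that this rule covers are not reported here. The genes and lists were chosen with earlier results of these data known, and the PN1 to PN15 comparison and the class from 50 to under 100 after seeing the data. The alternatives were a pseudocount of 5, no centring, a 3-fold limit, other background levels, the mean over entries and a filter on means under 5. Gene positions and neighbours come from the GENCODE annotation of mm9, and promoter sequences from RefSeq (GRCm38.p6). Calculations used scipy 1.17.1, matplotlib 3.10.9, pandas 2.3.3 and numpy 2.4.6 in Python 3.11.15. Of the steps, only the call of higher genes was tried on simulated counts, with a known rise planted on H3K27me3 values.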

Additional observations from a re-analysis of the deposited data

How the results depend on the processing

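Of 132 recomputations of 36 counts and medians, 122 stayed within 1.5 times the reported count or within the counting interval of the middle gene for a median, and 10 moved. No median changed sign. Without the subtraction of the median of all symbols, the genes at least 2-fold lower in H3K4me2 were 1 from E17.5 to PN1 (reported 0) and 1 from PN7 to PN15 (reported 6), and those higher from PN1 to PN7 were 2 (reported 4). The median H3K4me2 change was then 0.51 from PN1 to PN7 (reported 1.01) and −0.59 from PN7 to PN15 (reported −1.59). From PN1 to PN7 the count higher in H3K4me2 was also 2 with a pseudocount of 5, with a 3-fold limit, and with symbols of a mean under 5 left out. With a 3-fold limit the genes higher in H3K27me3 from E17.5 to PN1 and lower from PN7 to PN15 were 0 each (reported 1 each). For the centring and the limits the construction of the alternative gives these moves, and for the other 2 the cause was not tested. With the 95th percentile of Olfr entries or the 99th of vomeronasal receptor entries as background, Foxn4 at E17.5 was above it, so that H3K27me3 and both marks counted 7 genes at that stage (reported 6), and the other counts above background did not change. No paired analysis was possible because each condition had 1 library and no replicate number, and no replicate could be left out.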
